A study of Mus musculus with 12 samples.

Results

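Transcript levels of p53 and 31 genes of its pathway were followed in cells of a bone cell line treated with the extracellular matrix protein BIGH3. The 32 genes were taken from a list of p53 pathway genes, of 51707 genes with a matched transcript in the deposited files. They were Trp53 itself, its inhibitors Mdm2 and Mdm4, and 29 genes known as p53 targets. Of the 32, 30 had enough reads to be tested, and Perp and Cyfip2 did not. Ckap2, Gtse1 and Psrc1 are also known to follow the cell cycle, and counts are given with and without them.

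The cells were labelled as MLO-Y4, a mouse line with osteocyte features, and grown on plates coated with rat type I collagen at 0.15 mg/mL. The 4 groups were differentiated BIGH3 cells, differentiated controls, undifferentiated BIGH3 cells and undifferentiated controls, with 3 libraries each. Differentiation used a medium with 50 µg/mL ascorbic acid, 4 mM β-glycerophosphate and 10% serum, and the BIGH3 protein added to treated cells was recombinant and human. All 12 libraries are labelled as 1 cell line. The names of the deposited files begin with an abbreviation other than MLO-Y4, so the identity of the line rests on the labels. These give neither the dose and duration of BIGH3 nor the handling of controls. The study set out to examine how BIGH3 acts on the gap junction gene Gja1, and its title speaks of osteocyte apoptosis, so p53 and its targets bear on the cell death part of that question.

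p53 is a transcription factor that is kept scarce by the ubiquitin ligase Mdm2 and is stabilised when DNA is damaged or the cell is otherwise stressed. Its targets stop the cell cycle, repair DNA, change metabolism or start apoptosis, and one of them is Mdm2, which closes a negative feedback loop. Since p53 is controlled mainly as a protein, the level of Trp53 mRNA does not give its activity. In bone, p53 is known to restrain osteoblast differentiation.

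Depth was 19014492 to 27612155 estimated reads per library. Of 8 osteocyte markers, Dmp1, Phex, Pdpn and Gja1 were above 1 TPM in every library, while the mature osteocyte markers Sost, Mepe, Fgf23 and Dkk1 stayed at or below 0.70 TPM. The 7 osteoblast markers summed to 1891 to 1991 TPM in differentiated BIGH3 cells, 2115 to 2486 TPM in differentiated controls, 2494 to 2959 TPM in undifferentiated BIGH3 cells and 2726 to 3088 TPM in undifferentiated controls. By the test used below, all 7 were lower in differentiated BIGH3 cells than in differentiated controls, beside 22.9% of all genes that fell. The sums did not follow every gene. In controls 4 of the 7 rose with differentiation and 1 fell (median log2 1.76), beside 29.1% and 28.6% of all genes. In BIGH3 treated cells 2 rose and 3 fell (median 0.05), beside 28.9% and 27.7%. Of 4 osteocyte markers tested, 3 rose and 1 fell with BIGH3 in differentiated cells, beside 22.6% and 22.9% of all genes. The part of these shifts in the p53 results was not tested. Liver transcripts stood out in some libraries. The sum of 11 liver markers was 97.6 TPM in undifferentiated control library 2, 54.9 TPM in differentiated BIGH3 library 3 and 36.9 TPM in differentiated control library 2, and lay between 3.13 and 21.4 TPM in the others. Undifferentiated BIGH3 library 1 carried the liver transcript Afp at 8.25 TPM, against 0.88 to 2.39 TPM in the other 8. Alb was at or below 0.28 TPM throughout. Counts are therefore also given without the 3 or the 4 libraries that carry these transcripts.

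Genes were tested with edgeR's quasi-likelihood test over 14711 genes, and a gene was called at a Benjamini-Hochberg adjusted p below 0.05. Changes are log2 fold changes with their standard error, and levels are CPM, counts scaled by library size. In differentiated cells, 17 of the 30 tested p53 genes (56.7%) were called between BIGH3 and control, against 45.5% of all genes tested. Of these, 10 rose and 7 fell, beside 22.6% of all genes that rose and 22.9% that fell. The largest rises were those of Ckap2, Gtse1 and Pidd1, at 5.55, 3.54 and 3.04 times the control level, and the falls were shallow, the deepest being Phlda3 at 0.779 times the control level. Pidd1 had few reads, and its values sum coding and other transcripts. The median log2 fold change of the 30 genes was 0.04, beside −0.01 for all genes. Without Ckap2, Gtse1 and Psrc1, 7 of 27 rose and 7 fell, with a median of −0.02. Without the 3 libraries with most liver transcripts 8 rose and 4 fell, and the counts were 8 and 4 again without the 4, while the count over all genes was 5349 and 5375, against 6687.

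In undifferentiated cells 0 of the 30 genes were called between BIGH3 and control by this test, and 3 of 14711 genes (0.0204%) were called, with 0.0068% higher and 0.0136% lower. The count of p53 genes called was 0 with DESeq2 too, and 2 of the 30 had an unadjusted p below 0.05. The log2 fold changes lay between −0.86 and 0.15, with a median of −0.00, the same as for all genes. Of those below −0.2, Steap3 (−0.86 ± 0.31), Gdf15 (−0.61 ± 0.40), Plk3 (−0.24 ± 0.18) and Pidd1 (−0.23 ± 0.16) had fewer than 10 CPM in every undifferentiated library and wide errors.

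**Figure D1:**
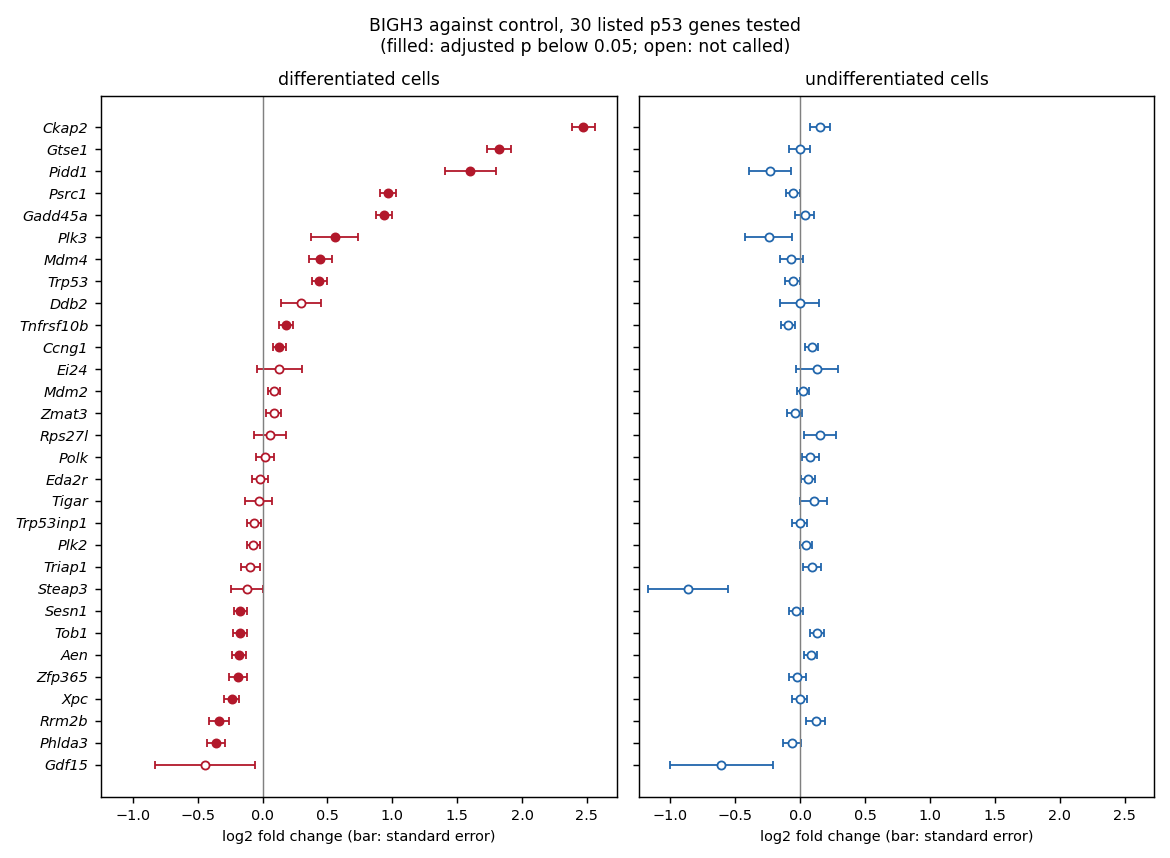
Log2 fold change of BIGH3 against control for the 30 tested p53 genes (rows, ordered by the differentiated cells), in differentiated cells (left) and undifferentiated cells (right). Points are estimates, bars are standard errors, and filled points passed an adjusted p of 0.05: 17 are filled on the left and 0 on the right.

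Differentiation moved most of the p53 genes, more often down than up. In BIGH3 treated cells, 7 of the 30 rose and 15 fell in differentiated against undifferentiated cells (73.3%, against 56.6% of all genes, with 28.9% that rose and 27.7% that fell), with a median of −0.15 beside 0.01 for all genes. In control cells 6 rose and 18 fell (80%, against 57.7% of all genes, with 29.1% that rose and 28.6% that fell), with a median of −0.35 beside −0.01. Without Ckap2, Gtse1 and Psrc1, 6 rose and 15 fell in BIGH3 treated cells, and 6 rose and 15 fell in controls. Without the 4 libraries with liver transcripts the counts were 6 and 14 in BIGH3 treated cells and 5 and 17 in controls, with 7303 and 7438 of all genes called. The comparisons within BIGH3 treated cells and within controls share no libraries with each other, but each shares a group with the BIGH3 comparisons, so values are set side by side and no overlap between them is read. Differentiation cannot be told apart from a direct action of its medium.

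The interaction of BIGH3 and differentiation, the BIGH3 effect in differentiated minus that in undifferentiated cells, was called for 14 of the 30 genes (46.7%, against 32.2% of all genes), with 9 positive and 5 negative, beside 16.2% and 16% of all genes. Its median was 0.02 beside 0.00 for all genes. Without Ckap2, Gtse1 and Psrc1, 11 of 27 were called (40.7%), with 6 positive and 5 negative and a median of −0.06. Without the 3 libraries with most liver transcripts 11 of the 30 were called, and without the 4 the count was 8. The count over all genes also fell in these fits, to 3484 and 3323, against 4730.

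**Figure D2:**
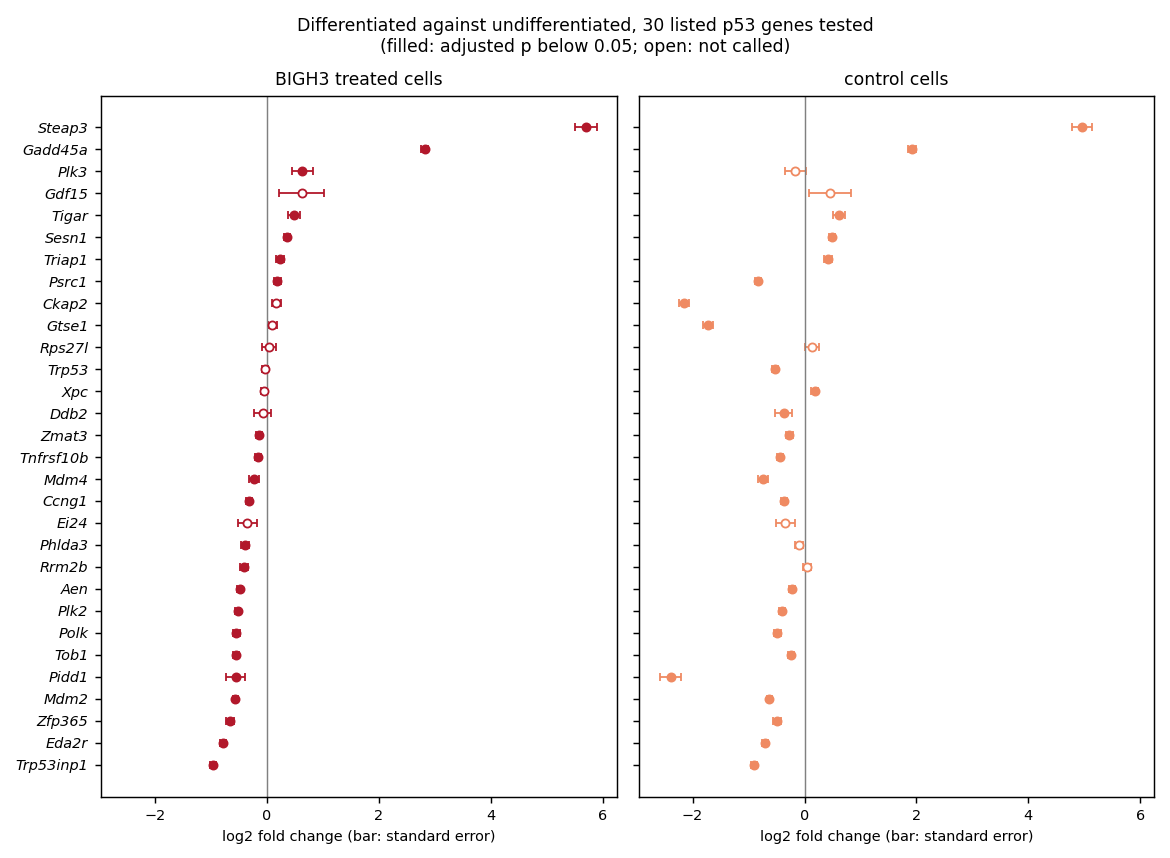
Log2 fold change of differentiated against undifferentiated cells for the 30 tested p53 genes (rows, ordered by the BIGH3 treated cells), in BIGH3 treated cells (left) and controls (right). Points are estimates, bars are standard errors, and filled points passed an adjusted p of 0.05; Steap3 and Gadd45a stand far to the right in both panels, and Ckap2, Gtse1 and Pidd1 far to the left in controls.

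Trp53 (mouse GRCm38, chr11:69580359-69591873, plus strand) encodes p53. Trp53 had 83.7, 88.9 and 82.9 CPM in differentiated BIGH3 cells and 61.7, 64 and 62.8 CPM in differentiated controls. In undifferentiated cells Trp53 had 89.3, 85.1 and 87 CPM with BIGH3 and 100.4, 86.2 and 85.7 CPM in controls. The differentiated controls were the lowest of the 4 groups and overlapped with none of them. Trp53 was higher with BIGH3 in differentiated cells (0.44 ± 0.06, adjusted p = 2.54e-06) and fell with differentiation in controls (−0.53 ± 0.06, adjusted p = 1e-07). With BIGH3 the difference between differentiated and undifferentiated cells was −0.03 ± 0.06, adjusted p = 0.639. The interaction was 0.50 ± 0.08, adjusted p = 6.37e-05. The differentiation change with BIGH3 was called on library totals and on the TPM scale (log2 −0.15 to −0.23, adjusted p = 0.0033 to 0.035).

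Mdm2 (chr10:117688875-117710758, minus strand) encodes the ligase that marks p53 for degradation, and is itself a p53 target. Mdm2 had 287, 285 and 271 CPM in differentiated BIGH3 cells and 271, 262 and 259 CPM in differentiated controls. In undifferentiated cells Mdm2 had 405, 429.7 and 409 CPM with BIGH3 and 397, 414 and 414 CPM in controls. Both undifferentiated groups lay above both differentiated groups, and the differentiated BIGH3 libraries lay just above the differentiated controls without passing the test (0.09 ± 0.05, adjusted p = 0.114). Mdm2 fell with differentiation in BIGH3 treated cells (−0.56 ± 0.05, adjusted p = 1.38e-09) and in controls (−0.63 ± 0.05, adjusted p = 2.2e-10). The interaction was 0.07 ± 0.06, adjusted p = 0.449. Whether the BIGH3 response of Trp53 differs from that of Mdm2 was not tested.

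Mdm4 (chr1:132959484-133030561, minus strand) encodes a relative of Mdm2 that covers the activation domain of p53. Mdm4 had 185, 191 and 217 CPM in differentiated BIGH3 cells and 141, 151 and 143 CPM in differentiated controls. In undifferentiated cells Mdm4 had 223, 245 and 229 CPM with BIGH3 and 267, 257 and 206 CPM in controls. As for Trp53, the differentiated controls were lowest and apart from every other group. Mdm4 rose with BIGH3 in differentiated cells (0.44 ± 0.09, adjusted p = 0.00104) and fell with differentiation in controls (−0.74 ± 0.09, adjusted p = 7.03e-06). Its smaller fall with differentiation in BIGH3 treated cells (−0.23 ± 0.09, adjusted p = 0.0362) was not called without undifferentiated BIGH3 library 2, undifferentiated BIGH3 library 3, differentiated BIGH3 library 1 or differentiated BIGH3 library 2 (log2 −0.19 to −0.24, adjusted p = 0.0652 to 0.133), or with transcript length in the fit (log2 −0.27, adjusted p = 0.096). The interaction (0.51 ± 0.12, adjusted p = 0.00649) was not called without the 4 libraries with liver transcripts (log2 0.40, adjusted p = 0.0699). Mdm4 overlaps the pseudogene Gm29257 on the opposite strand, which reached 10.0 TPM, and the strand of the reads is unknown here.

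**Figure D3:**
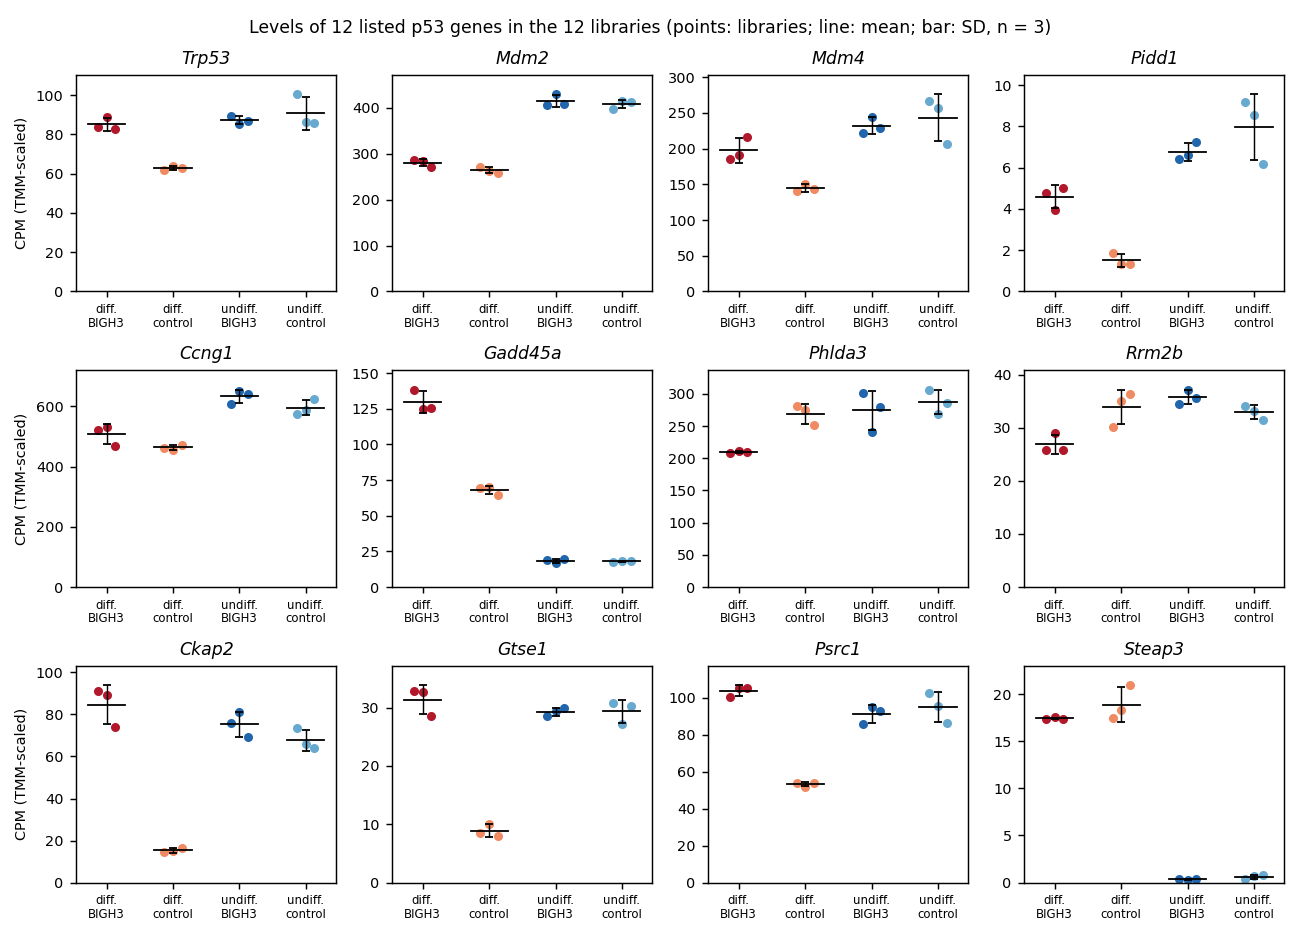
CPM of 12 p53 genes in each library (points), with the mean (line) and SD (bar) of 3 libraries per group; each panel has its own axis from 0. Trp53, Mdm4, Ckap2, Gtse1 and Psrc1 are lowest in the differentiated controls, Mdm2 is lower in both differentiated groups, and Steap3 is near 0 in both undifferentiated groups.

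All 3 members that also follow the cell cycle rose with BIGH3 in differentiated cells and fell with differentiation in controls. Their promoters are shown with those of Mdm2 and Gadd45a, a pair that moved in opposite directions with differentiation, so that windows of members that moved alike and of members that did not can be set side by side. Each is a RefSeq window of GRCm38.p6 that runs 250 bases before to 50 after an annotated start, written 5′ to 3′ on the gene's strand. Gtse1 and Psrc1 each have another window at another annotated start, which is not shown. Capitals mark the cell cycle homology region (TTTGAA or TTCGAA, an element known from promoters of late cell cycle genes) and the half-site of the p53 consensus, both searched on either strand.

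Ckap2 (chr8:22185770-22186069, minus strand): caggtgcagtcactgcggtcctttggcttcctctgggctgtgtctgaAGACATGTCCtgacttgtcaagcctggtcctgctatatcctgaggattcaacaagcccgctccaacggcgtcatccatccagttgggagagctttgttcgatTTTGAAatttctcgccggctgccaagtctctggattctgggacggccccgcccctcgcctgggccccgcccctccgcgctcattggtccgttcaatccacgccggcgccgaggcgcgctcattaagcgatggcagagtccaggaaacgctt

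Gtse1 (chr15:85859696-85859995, plus strand): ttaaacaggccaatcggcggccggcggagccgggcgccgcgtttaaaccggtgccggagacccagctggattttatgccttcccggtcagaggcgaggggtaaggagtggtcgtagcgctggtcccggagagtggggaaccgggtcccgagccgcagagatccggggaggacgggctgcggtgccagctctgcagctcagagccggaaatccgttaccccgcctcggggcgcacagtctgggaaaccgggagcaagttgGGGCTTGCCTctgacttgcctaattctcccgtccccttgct

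Psrc1 (chr3:108383554-108383853, plus strand): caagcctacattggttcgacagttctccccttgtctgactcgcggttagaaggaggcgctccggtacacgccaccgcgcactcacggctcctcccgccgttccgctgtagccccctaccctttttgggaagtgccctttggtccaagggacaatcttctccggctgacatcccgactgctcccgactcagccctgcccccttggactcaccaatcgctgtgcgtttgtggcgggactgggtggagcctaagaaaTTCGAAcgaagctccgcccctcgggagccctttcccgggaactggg

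Mdm2 (chr10:117710709-117711008, minus strand): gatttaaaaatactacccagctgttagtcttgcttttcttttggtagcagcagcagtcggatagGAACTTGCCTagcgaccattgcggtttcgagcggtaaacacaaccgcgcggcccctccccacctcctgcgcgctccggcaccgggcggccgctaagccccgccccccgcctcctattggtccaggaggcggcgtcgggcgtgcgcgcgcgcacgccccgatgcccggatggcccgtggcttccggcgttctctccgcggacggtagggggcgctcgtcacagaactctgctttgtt

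Gadd45a (chr6:67037358-67037657, minus strand): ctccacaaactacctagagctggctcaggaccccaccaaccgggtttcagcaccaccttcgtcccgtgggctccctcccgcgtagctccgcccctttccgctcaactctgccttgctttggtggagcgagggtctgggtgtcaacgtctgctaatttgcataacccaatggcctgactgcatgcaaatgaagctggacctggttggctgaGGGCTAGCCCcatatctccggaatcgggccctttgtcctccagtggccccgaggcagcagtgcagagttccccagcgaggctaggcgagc

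With the start base as position 0, Ckap2 held TTTGAA from −101 to −96 and the Psrc1 window shown held TTCGAA from 4 to 9. In the other Psrc1 window (chr3:108383588-108383887) TTCGAA stood from −30 to −25. Among 32851 promoter windows of the mouse genome, TTTGAA stood in 17.9% and TTCGAA in 1.56%. Neither element was in the Gtse1 window shown. The other Gtse1 window (chr15:85859457-85859756) held neither element and no p53 half-site. Of the 36 windows found for p53 genes, 3 held TTTGAA, those of Ckap2, Aen and Gdf15, and 2 held TTCGAA, both of Psrc1. Aen fell with BIGH3 in differentiated cells, and Gdf15 was called in no comparison. The p53 half-site stood from −203 to −194 in Ckap2, from 9 to 18 in the Gtse1 window shown, from −186 to −177 in Mdm2 and from −40 to −31 in Gadd45a. It stood in 12 of the 36 windows found for 25 of the 32 p53 genes, and in 8.36% of all windows. A pair of half-sites close together was in none of the 36 and in 0.073% of all windows. The known p53 sites of Mdm2 lie in its first intron, so these windows do not cover every known site. Such matches describe letters and show no binding.

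Ckap2 (chr8:22168160-22185819, minus strand) encodes a microtubule protein of the mitotic spindle. Ckap2 had 90.9, 89 and 74.3 CPM in differentiated BIGH3 cells and 14.5, 15 and 16.4 CPM in differentiated controls. In undifferentiated cells Ckap2 had 75.8, 81 and 69.3 CPM with BIGH3 and 73.5, 65.8 and 64 CPM in controls. The differentiated controls were far below every other library. Ckap2 rose with BIGH3 in differentiated cells (2.47 ± 0.09, adjusted p = 7.92e-14) and fell with differentiation in controls (−2.15 ± 0.09, adjusted p = 3.92e-13), with an interaction of 2.32 ± 0.12, adjusted p = 3.46e-11. In BIGH3 treated cells its differentiation change was not called (0.17 ± 0.08, adjusted p = 0.0679), but it was without undifferentiated BIGH3 library 2 or differentiated BIGH3 library 3 (log2 0.23 to 0.24, adjusted p = 0.00719 to 0.0301), and with no filter on low counts and without the 3 or the 4 libraries with liver transcripts (log2 0.15 to 0.26, adjusted p = 0.0119 to 0.047).

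Gtse1 (chr15:85859745-85876573, plus strand) is made in S and G2 phase, binds microtubules and carries p53 out of the nucleus. Gtse1 had 32.8, 32.7 and 28.5 CPM in differentiated BIGH3 cells and 8.56, 10.1 and 7.96 CPM in differentiated controls. In undifferentiated cells Gtse1 had 28.6, 29.5 and 29.9 CPM with BIGH3 and 30.8, 27.1 and 30.3 CPM in controls. Again only the differentiated controls stood apart among the 4 groups. The rise with BIGH3 in differentiated cells was 1.82 ± 0.09, adjusted p = 8.45e-13, and the fall with differentiation in controls was −1.73 ± 0.09, adjusted p = 1.28e-12. The interaction was 1.83 ± 0.12, adjusted p = 2.49e-10, while the differentiation change in BIGH3 treated cells was not called (0.10 ± 0.08, adjusted p = 0.317).

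Psrc1 (chr3:108383839-108388231, plus strand) encodes a proline-rich spindle protein. Psrc1 had 101, 106 and 106 CPM in differentiated BIGH3 cells and 53.7, 51.9 and 53.9 CPM in differentiated controls. In undifferentiated cells Psrc1 had 85.9, 95.3 and 92.7 CPM with BIGH3 and 103, 95.8 and 86.4 CPM in controls. The differentiated controls were again the lowest and overlapped with no other group. Psrc1 rose with BIGH3 in differentiated cells (0.97 ± 0.06, adjusted p = 2.27e-11) and fell with differentiation in controls (−0.83 ± 0.06, adjusted p = 1.6e-10), with an interaction of 1.02 ± 0.08, adjusted p = 4.14e-09. With BIGH3 it was higher in differentiated than in undifferentiated cells (0.19 ± 0.06, adjusted p = 0.00881), a call that was lost without undifferentiated BIGH3 library 1 (log2 0.14, adjusted p = 0.0578) and on library totals, with transcript length in the fit and without the 3 or the 4 libraries with liver transcripts (log2 0.07 to 0.17, adjusted p = 0.0522 to 0.282), and whose sign turned on the TPM scale (−0.03).

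Cell cycle genes outside the p53 list are given beside them. All 29 rose with BIGH3 in differentiated cells (median 2.05), beside 22.6% of all genes. With differentiation in controls 27 of the 29 fell (median −1.68), beside 28.6% of all genes. In BIGH3 treated cells 19 rose and 2 fell with differentiation (median 0.24), beside 28.9% and 27.7% of all genes. With BIGH3 in undifferentiated cells 0 were called (median 0.07), beside 0.0204% of all genes. The interaction was positive and called for 27 (median 1.96), beside 16.2% of all genes. The smallest adjusted p in differentiated BIGH3 cells against controls were those of Cenpf (2.44 ± 0.07), Cenpe (2.01 ± 0.06), Top2a (2.01 ± 0.06) and Mki67 (2.08 ± 0.07), which encode 2 kinetochore proteins, a topoisomerase of dividing cells and the Ki-67 antigen. In controls the falls with differentiation were led by Cenpf (−2.16 ± 0.07), Cenpe (−1.73 ± 0.06), the mitotic kinesin Kif11 (−2.19 ± 0.08) and Kif20a (−2.29 ± 0.08), another one. With BIGH3 the rises with differentiation were led by Cdk1 (0.71 ± 0.06), Top2a (0.62 ± 0.06), Mcm2 (0.56 ± 0.06) and Mcm3 (0.48 ± 0.05), the last a pair of subunits of the replicative helicase. The part of these cells' proliferation in the values of the other p53 genes was not tested. In bulk RNA, fewer cells with a transcript and less of it per cell cannot be told apart.

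**Figure D4:**
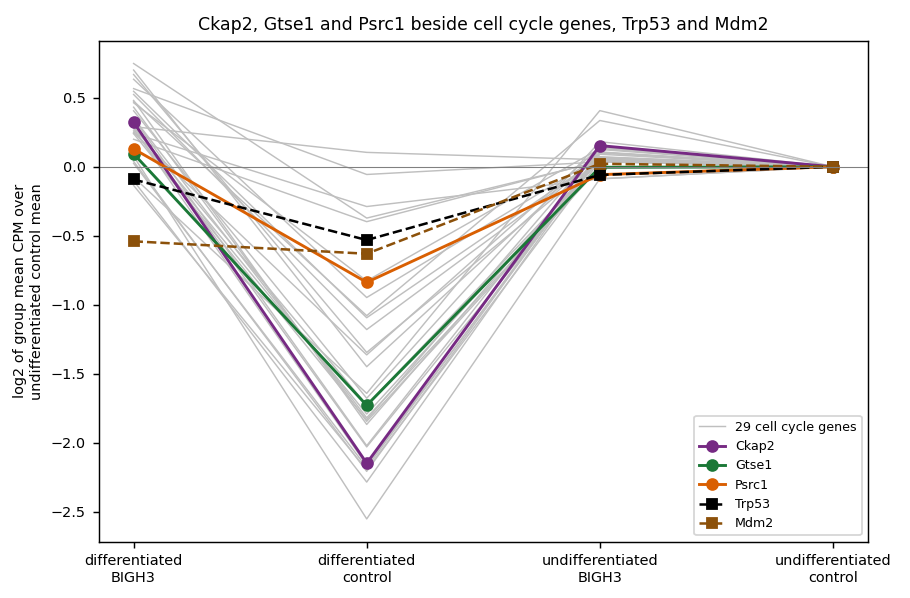
Group mean CPM of each gene over its mean in undifferentiated controls, on a log2 axis, for Ckap2, Gtse1 and Psrc1 (solid coloured lines), Trp53 and Mdm2 (dashed) and 29 cell cycle genes (grey), with 3 libraries per group. Lines join the 4 groups and show no time course; Ckap2 and Gtse1 dip in the differentiated controls with most grey lines, Psrc1 and Trp53 dip less, and Mdm2 is low in both differentiated groups.

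Gadd45a (chr6:67035096-67037457, minus strand) encodes a growth arrest protein that binds PCNA and inhibits the Cdk1 kinase. Gadd45a had 138, 125 and 126 CPM in differentiated BIGH3 cells and 69.1, 69.9 and 64.5 CPM in differentiated controls. In undifferentiated cells Gadd45a had 18.6, 16.6 and 19.8 CPM with BIGH3 and 17.3, 18.2 and 18.3 CPM in controls. The 4 groups formed 3 separate levels, highest in differentiated BIGH3 cells, and the undifferentiated groups overlapped. Gadd45a was higher with BIGH3 in differentiated cells (0.93 ± 0.06, adjusted p = 5.7e-11). It rose with differentiation in BIGH3 treated cells (2.82 ± 0.07, adjusted p = 2.86e-18) and in controls (1.92 ± 0.07, adjusted p = 2.19e-15), with an interaction of 0.90 ± 0.09, adjusted p = 2.15e-07. It overlaps the transcript E230016M11Rik on the opposite strand, which reached 2.22 TPM. Cdkn1a, the classic p53 target that inhibits cyclin-dependent kinases, averaged 235 ± 21.3 CPM in differentiated BIGH3 cells, 227 ± 9.0 CPM in differentiated controls, 349 ± 6.55 CPM in undifferentiated BIGH3 cells and 343 ± 6.62 CPM in undifferentiated controls (SD, n = 3). It fell with differentiation with BIGH3 (−0.57 ± 0.06, adjusted p = 2.67e-08) and in controls (−0.60 ± 0.06, adjusted p = 1.32e-08) and was not called with BIGH3 in differentiated cells (0.05 ± 0.06, adjusted p = 0.507).

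Ccng1 (chr11:40748552-40755311, minus strand) encodes cyclin G1, which brings a phosphatase to Mdm2. Ccng1 had 521, 533 and 469 CPM in differentiated BIGH3 cells and 463, 456 and 472 CPM in differentiated controls. In undifferentiated cells Ccng1 had 609.7, 650.5 and 642 CPM with BIGH3 and 577, 589 and 624 CPM in controls. Both differentiated groups lay below both undifferentiated groups. Ccng1 fell with differentiation in BIGH3 treated cells (−0.32 ± 0.05, adjusted p = 1.93e-05) and in controls (−0.36 ± 0.05, adjusted p = 3.75e-06). With BIGH3 in differentiated cells it was called higher (0.13 ± 0.05, adjusted p = 0.0416) although the libraries overlapped, and the call was lost without undifferentiated BIGH3 library 3, undifferentiated control library 2, differentiated BIGH3 library 1, differentiated BIGH3 library 2, differentiated control library 1, differentiated control library 2 or differentiated control library 3 (log2 0.09 to 0.13, adjusted p = 0.0507 to 0.243), and with no filter on low counts, with transcript length in the fit and on the TPM scale (log2 0.10 to 0.13, adjusted p = 0.0798 to 0.146).

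Sesn1 (chr10:41809935-41908424, plus strand) encodes sestrin 1, which lowers mTORC1 signalling under stress. Sesn1 had 96.6, 100.4 and 98.6 CPM in differentiated BIGH3 cells and 113, 112 and 108 CPM in differentiated controls. In undifferentiated cells Sesn1 had 78.7, 74.1 and 78.2 CPM with BIGH3 and 73.1, 77.6 and 85.2 CPM in controls. The differentiated libraries lay above the undifferentiated ones, and the differentiated BIGH3 libraries below the differentiated controls. Sesn1 rose with differentiation with BIGH3 (0.36 ± 0.05, adjusted p = 7.99e-06) and in controls (0.49 ± 0.05, adjusted p = 7.05e-08), and it fell with BIGH3 in differentiated cells (−0.17 ± 0.05, adjusted p = 0.0108). That fall was not called on the TPM scale and without the 3 or the 4 libraries with liver transcripts (log2 −0.14 to −0.18, adjusted p = 0.0554 to 0.155). The interaction was not called (−0.14 ± 0.07, adjusted p = 0.165), but it was without undifferentiated control library 3 (log2 −0.20, adjusted p = 0.0272).

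Plk2 (chr13:110395046-110400844, plus strand) and Plk3 (chr4:117128655-117133963, minus strand) are stress-responsive kinases of the polo family. Plk2 had 82.4, 85 and 85.9 CPM in differentiated BIGH3 cells and 86.6, 84.5 and 94.9 CPM in differentiated controls. In undifferentiated cells Plk2 had 119, 122 and 122 CPM with BIGH3 and 115, 119.7 and 117 CPM in controls. The undifferentiated groups were higher than the differentiated ones. Plk2 fell with differentiation in BIGH3 treated cells (−0.52 ± 0.05, adjusted p = 1.04e-08) and in controls (−0.40 ± 0.05, adjusted p = 3.5e-07) and was not called with BIGH3 in differentiated cells (−0.07 ± 0.05, adjusted p = 0.245). Plk3 was far scarcer and was highest in differentiated BIGH3 cells. Plk3 had 4.01, 4.76 and 4.14 CPM in differentiated BIGH3 cells and 3.56, 2.78 and 2.43 CPM in differentiated controls. In undifferentiated cells Plk3 had 2.59, 2.9 and 2.82 CPM with BIGH3 and 3.38, 3.39 and 3.07 CPM in controls. Plk3 rose with BIGH3 in differentiated cells (0.55 ± 0.18, adjusted p = 0.0172) and with differentiation in BIGH3 treated cells (0.63 ± 0.18, adjusted p = 0.00573), and its interaction was 0.80 ± 0.26, adjusted p = 0.0226. The BIGH3 rise was lost without differentiated BIGH3 library 2, differentiated control library 2 or differentiated control library 3 (log2 0.43 to 0.51, adjusted p = 0.0585 to 0.093), and the interaction was lost without differentiated BIGH3 library 2 or differentiated control library 3 (log2 0.67 to 0.72, adjusted p = 0.062 to 0.0649). The BIGH3 rise was also lost with no filter on low counts and without the 3 or the 4 libraries with liver transcripts (log2 0.53 to 0.55, adjusted p = 0.055 to 0.092), and the interaction with no filter on low counts and without the 3 or the 4 libraries with liver transcripts (log2 0.72 to 0.78, adjusted p = 0.0641 to 0.156). The differentiation rise was lost with 0.1 added to the TPM before taking logs (log2 0.39, adjusted p = 0.0652), and the differentiation change in controls, not called in CPM (−0.16 ± 0.18, adjusted p = 0.466), was called on the TPM scale (log2 −0.30 to −0.45, adjusted p = 0.0262 to 0.0349). Plk3 overlaps Tctex1d4 on the opposite strand by 84 bases, and Tctex1d4 reached 2.31 TPM.

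Tob1 (chr11:94211454-94215495, plus strand) encodes an antiproliferative protein that recruits a deadenylase to mRNAs. Tob1 had 103, 95.7 and 92.5 CPM in differentiated BIGH3 cells and 112, 108 and 108 CPM in differentiated controls. In undifferentiated cells Tob1 had 144, 141 and 142 CPM with BIGH3 and 125, 123 and 141 CPM in controls. The undifferentiated groups were higher, and within the differentiated cells all BIGH3 libraries lay below all controls. Tob1 fell with BIGH3 in differentiated cells (−0.17 ± 0.05, adjusted p = 0.0145), with differentiation in BIGH3 treated cells (−0.55 ± 0.05, adjusted p = 3.06e-08) and with differentiation in controls (−0.24 ± 0.05, adjusted p = 0.000583). The interaction was −0.30 ± 0.08, adjusted p = 0.00434. The BIGH3 fall was not called on the TPM scale and without the 3 or the 4 libraries with liver transcripts (log2 −0.15 to −0.17, adjusted p = 0.0649 to 0.0973), and the interaction was not called on the TPM scale and without the 4 libraries with liver transcripts (log2 −0.18 to −0.23, adjusted p = 0.0833 to 0.212).

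Zfp365 (chr10:67886103-67912662, minus strand) encodes a zinc finger protein that helps keep the genome stable. Zfp365 had 34.9, 31.2 and 32.2 CPM in differentiated BIGH3 cells and 35.1, 37.4 and 39.5 CPM in differentiated controls. In undifferentiated cells Zfp365 had 50.3, 53.5 and 51.7 CPM with BIGH3 and 49.6, 56.4 and 51.7 CPM in controls. The differentiated groups were lower than the undifferentiated ones. Zfp365 fell with differentiation with BIGH3 (−0.66 ± 0.07, adjusted p = 5.47e-08) and in controls (−0.49 ± 0.07, adjusted p = 2.16e-06). Its small fall with BIGH3 in differentiated cells (−0.19 ± 0.07, adjusted p = 0.032) was lost without differentiated BIGH3 library 2, differentiated BIGH3 library 3, differentiated control library 2 or differentiated control library 3 (log2 −0.15 to −0.19, adjusted p = 0.0546 to 0.113), and with transcript length in the fit, on the TPM scale and without the 3 or the 4 libraries with liver transcripts (log2 −0.10 to −0.19, adjusted p = 0.0984 to 0.406). Gdf15, which encodes a secreted stress factor of the TGF-β family, was near the limit of detection at 0.37 to 1.23 CPM over the 12 libraries and was called in no comparison.

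Pidd1 (chr7:141438113-141444025, minus strand) encodes the scaffold of the PIDDosome, which activates caspase-2. Pidd1 had 4.79, 3.96 and 5.04 CPM in differentiated BIGH3 cells and 1.86, 1.32 and 1.33 CPM in differentiated controls. In undifferentiated cells Pidd1 had 6.4, 6.6 and 7.25 CPM with BIGH3 and 9.19, 8.54 and 6.18 CPM in controls. The differentiated controls were lowest, at a level of few reads, and the undifferentiated groups were highest. These values sum all transcripts of Pidd1. Protein-coding transcripts held 52.7% ± 9.2 of its TPM in differentiated BIGH3 cells and 37.2% ± 32.3 in differentiated controls. They held 9.6% ± 16.7 in undifferentiated BIGH3 cells and 8.7% ± 15.1 in undifferentiated controls (SD, n = 3). A change of the coding transcripts of Pidd1 alone was not tested, and the changes below are those of the sum. Pidd1 rose with BIGH3 in differentiated cells (1.6 ± 0.19, adjusted p = 8.02e-07), and it fell with differentiation in controls (−2.39 ± 0.19, adjusted p = 8.31e-10) and less so in BIGH3 treated cells (−0.55 ± 0.17, adjusted p = 0.00865), with an interaction of 1.84 ± 0.25, adjusted p = 8.92e-06.

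Trp53inp1 (chr4:11156431-11174379, plus strand) encodes a nuclear protein that promotes p53 phosphorylation and autophagy. Trp53inp1 had 179.9, 191 and 199 CPM in differentiated BIGH3 cells and 198, 199.9 and 199.7 CPM in differentiated controls. In undifferentiated cells Trp53inp1 had 359, 385 and 367 CPM with BIGH3 and 383, 393 and 338 CPM in controls. The undifferentiated libraries lay well above the differentiated ones. Trp53inp1 fell with differentiation in BIGH3 treated cells (−0.96 ± 0.06, adjusted p = 8.16e-12) and in controls (−0.90 ± 0.06, adjusted p = 2.23e-11), the deepest fall of the 30 genes in BIGH3 treated cells, and it was not called with BIGH3 in differentiated cells (−0.07 ± 0.06, adjusted p = 0.363).

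Phlda3 (chr1:135766119-135769136, plus strand) encodes a protein that competes with the survival kinase Akt for membrane lipids. Phlda3 had 208, 211 and 209 CPM in differentiated BIGH3 cells and 281, 275 and 251 CPM in differentiated controls. In undifferentiated cells Phlda3 had 302, 241 and 280.4 CPM with BIGH3 and 306, 269 and 286 CPM in controls. The differentiated BIGH3 libraries were the lowest and lay close together. Phlda3 fell with BIGH3 in differentiated cells (−0.36 ± 0.07, adjusted p = 0.000336) and with differentiation in BIGH3 treated cells (−0.39 ± 0.07, adjusted p = 0.000109), and in controls the differentiation change was −0.09 ± 0.07, adjusted p = 0.257. That last change was called on library totals and on the TPM scale (log2 −0.24 to −0.39, adjusted p = 0.000517 to 0.0114). The interaction (−0.30 ± 0.10, adjusted p = 0.0274) was lost without undifferentiated BIGH3 library 1, undifferentiated BIGH3 library 3, undifferentiated control library 2, undifferentiated control library 3, differentiated BIGH3 library 1, differentiated control library 1 or differentiated control library 2 (log2 −0.22 to −0.29, adjusted p = 0.05 to 0.0735), and on library totals, on the TPM scale and without the 3 or the 4 libraries with liver transcripts (log2 −0.16 to −0.26, adjusted p = 0.0783 to 0.308).

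Eda2r (chrX:97333840-97377216, minus strand) encodes the receptor of ectodysplasin A2, and Tnfrsf10b (chr14:69767472-69784411, plus strand) the death receptor for TRAIL. Eda2r had 48.8, 54.4 and 48.5 CPM in differentiated BIGH3 cells and 49.8, 50.7 and 53.1 CPM in differentiated controls. In undifferentiated cells Eda2r had 81, 90.6 and 90.0 CPM with BIGH3 and 81.5, 88 and 81.4 CPM in controls. The differentiated groups were lower and overlapped each other. Eda2r fell with differentiation in BIGH3 treated cells (−0.79 ± 0.06, adjusted p = 4.93e-10) and in controls (−0.71 ± 0.06, adjusted p = 2.09e-09), and with BIGH3 in differentiated cells the change was −0.02 ± 0.06, adjusted p = 0.832. Tnfrsf10b had 59.6, 59.6 and 58.7 CPM in differentiated BIGH3 cells and 52.6, 50.9 and 53.4 CPM in differentiated controls. In undifferentiated cells Tnfrsf10b had 62.3, 66.8 and 70.2 CPM with BIGH3 and 75.4, 67.9 and 69.6 CPM in controls. For Tnfrsf10b the differentiated controls were the lowest of the 4 groups. Tnfrsf10b rose with BIGH3 in differentiated cells (0.18 ± 0.06, adjusted p = 0.0126), a call lost without differentiated control library 2 (log2 0.15, adjusted p = 0.0662), and without the 3 or the 4 libraries with liver transcripts (log2 0.16 to 0.17, adjusted p = 0.0605 to 0.0995). It fell with differentiation in controls (−0.44 ± 0.06, adjusted p = 9.76e-07) and in BIGH3 treated cells (−0.16 ± 0.06, adjusted p = 0.0175), the second not called without undifferentiated BIGH3 library 3 (log2 −0.12, adjusted p = 0.112), or with transcript length in the fit (log2 −0.15, adjusted p = 0.0553). The Tnfrsf10b interaction (0.28 ± 0.08, adjusted p = 0.0106) was not called without the 4 libraries with liver transcripts (log2 0.25, adjusted p = 0.0686).

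Aen (chr7:78895854-78911209, plus strand) encodes an exonuclease that helps degrade DNA in apoptosis, and Zmat3 (chr3:32334792-32366014, minus strand) a zinc finger protein that binds RNA and directs splicing. Aen had 69.4, 70.0 and 72.2 CPM in differentiated BIGH3 cells and 81.2, 76.6 and 82 CPM in differentiated controls. In undifferentiated cells Aen had 96.1, 101 and 99.8 CPM with BIGH3 and 99.1, 88.8 and 93 CPM in controls. The differentiated BIGH3 libraries were the lowest. Aen fell with differentiation in BIGH3 treated cells (−0.49 ± 0.05, adjusted p = 4.96e-08) and in controls (−0.23 ± 0.05, adjusted p = 0.000504). Its fall with BIGH3 in differentiated cells (−0.18 ± 0.05, adjusted p = 0.00585) was not called with transcript length in the fit and on the TPM scale (log2 −0.04 to −0.07, adjusted p = 0.361 to 0.685). Its interaction (−0.26 ± 0.07, adjusted p = 0.007) was not called with transcript length in the fit and on the TPM scale (log2 −0.02 to −0.12, adjusted p = 0.33 to 0.892). Zmat3 had 112, 116 and 122 CPM in differentiated BIGH3 cells and 109.6, 112 and 108 CPM in differentiated controls. In undifferentiated cells Zmat3 had 131, 117 and 137 CPM with BIGH3 and 140.3, 127 and 130.1 CPM in controls. Zmat3 levels differed little among the groups. Zmat3 fell with differentiation in controls (−0.27 ± 0.06, adjusted p = 0.000336), and its fall in BIGH3 treated cells (−0.14 ± 0.06, adjusted p = 0.0387) was lost without undifferentiated BIGH3 library 1, undifferentiated BIGH3 library 3, differentiated BIGH3 library 1 or differentiated BIGH3 library 2 (log2 −0.09 to −0.14, adjusted p = 0.0796 to 0.212), and without the 4 libraries with liver transcripts (log2 −0.16, adjusted p = 0.0694). With BIGH3 in differentiated cells it was not called (0.09 ± 0.06, adjusted p = 0.228).

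Steap3 (chr1:120190757-120272705, minus strand) encodes an endosomal reductase of iron uptake. Steap3 had 17.4, 17.5 and 17.3 CPM in differentiated BIGH3 cells and 17.5, 18.3 and 21 CPM in differentiated controls. In undifferentiated cells Steap3 had 0.324, 0.234 and 0.414 CPM with BIGH3 and 0.328, 0.654 and 0.768 CPM in controls. The undifferentiated libraries were all below 1 CPM and the differentiated ones all above 17 CPM. Steap3 was 52.4 times as high in differentiated as in undifferentiated cells with BIGH3 (5.71 ± 0.20, adjusted p = 1.16e-15) and 31.2 times as high in controls (4.96 ± 0.18, adjusted p = 2.61e-15), the largest changes among the 30 genes. In differentiated cells BIGH3 made no called difference (−0.12 ± 0.12, adjusted p = 0.463). The interaction was not called (0.75 ± 0.33, adjusted p = 0.0932), but it was without undifferentiated control library 1 (log2 1.00, adjusted p = 0.0308).

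Triap1 (chr5:115341225-115343569, plus strand), a mitochondrial protein that restrains apoptosis, and Tigar (chr6:127085116-127109557, minus strand), a phosphatase that slows glycolysis, were higher in differentiated cells. Triap1 had 33.1, 35.7 and 34.1 CPM in differentiated BIGH3 cells and 35.5, 36.2 and 38.1 CPM in differentiated controls. In undifferentiated cells Triap1 had 27, 28.4 and 32.2 CPM with BIGH3 and 27.1, 26.8 and 28.2 CPM in controls. Differentiated and undifferentiated libraries did not overlap. Triap1 rose with differentiation in controls (0.42 ± 0.07, adjusted p = 4.46e-05), a rise not called on the TPM scale (log2 0.13, adjusted p = 0.0761 to 0.0764). Its rise in BIGH3 treated cells (0.23 ± 0.07, adjusted p = 0.00961) was lost without undifferentiated BIGH3 library 1 (log2 0.18, adjusted p = 0.0594), and on library totals, on the TPM scale and without the 4 libraries with liver transcripts (log2 0.04 to 0.18, adjusted p = 0.111 to 0.582). Tigar had 12, 11.8 and 11.6 CPM in differentiated BIGH3 cells and 13.2, 11.2 and 11.7 CPM in differentiated controls. In undifferentiated cells Tigar had 9.16, 8.52 and 7.62 CPM with BIGH3 and 7.41, 8.01 and 8.1 CPM in controls. Tigar likewise had no overlap between the states. Tigar rose with differentiation in BIGH3 treated cells (0.48 ± 0.10, adjusted p = 0.000557) and in controls (0.61 ± 0.10, adjusted p = 3.7e-05), though on the TPM scale neither rise was called (log2 0.27 with BIGH3 and 0.20 in controls). Neither gene was called with BIGH3 in differentiated cells (−0.09 ± 0.07, adjusted p = 0.311 for Triap1 and −0.03 ± 0.10, adjusted p = 0.847 for Tigar).

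Ei24, which encodes an endoplasmic reticulum protein of autophagy, had 7.69 to 15 CPM over the 12 libraries and was called in no comparison. Its differentiation change (−0.34 ± 0.17, adjusted p = 0.0883 in controls and −0.35 ± 0.17, adjusted p = 0.089 in BIGH3 treated cells) was called without undifferentiated control library 1 (log2 −0.49, adjusted p = 0.0135) and without undifferentiated BIGH3 library 3, undifferentiated control library 1 or undifferentiated control library 3 (log2 −0.35 to −0.47, adjusted p = 0.0265 to 0.0472). It was also called in BIGH3 treated cells on library totals, with no filter on low counts, with the compared groups alone, with transcript length in the fit and on the TPM scale (log2 −0.36 to −0.74, adjusted p = 0.00581 to 0.036) and in controls on library totals, with no filter on low counts, with transcript length in the fit and on the TPM scale (log2 −0.36 to −1.29, adjusted p = 0.000203 to 0.0244). Perp, a membrane protein of desmosomes and apoptosis, had 0 to 0.49 CPM. Cyfip2, a subunit of the actin-regulating WAVE complex, had 0.04 to 0.37 CPM. Changes of these 2 were not detectable at this depth.

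Rrm2b (chr15:37923952-37961318, minus strand) encodes the p53-inducible small subunit of ribonucleotide reductase. Rrm2b had 25.8, 29 and 25.9 CPM in differentiated BIGH3 cells and 30.2, 35.1 and 36.3 CPM in differentiated controls. In undifferentiated cells Rrm2b had 34.5, 37.2 and 35.6 CPM with BIGH3 and 34, 33.2 and 31.5 CPM in controls. The differentiated BIGH3 libraries were the lowest and overlapped with no other group. Rrm2b fell with BIGH3 in differentiated cells (−0.33 ± 0.08, adjusted p = 0.00142) and with differentiation in BIGH3 treated cells (−0.41 ± 0.08, adjusted p = 0.000123), and its interaction was −0.45 ± 0.11, adjusted p = 0.00284, not called on the TPM scale (log2 −0.27 to −0.30, adjusted p = 0.117 to 0.119). In controls the differentiation change was 0.04 ± 0.08, adjusted p = 0.673, and on the TPM scale it had the other sign (log2 −0.24, adjusted p = 0.0231). It shares a strand and 466 bases with the pseudogene Gm3362, which reached 3.13 TPM, so part of its reads may be divided between them.

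Xpc (chr6:91489305-91515888, minus strand) and Ddb2 (chr2:91211572-91236982, minus strand) recognise damage for nucleotide excision repair. Xpc had 64.2, 62.8 and 64.5 CPM in differentiated BIGH3 cells and 74.9, 76.9 and 74.1 CPM in differentiated controls. In undifferentiated cells Xpc had 69.3, 65.2 and 64.2 CPM with BIGH3 and 62.3, 63.2 and 73.2 CPM in controls. The differentiated controls were the highest group. Xpc fell with BIGH3 in differentiated cells (−0.24 ± 0.06, adjusted p = 0.00222) and rose with differentiation in controls (0.18 ± 0.06, adjusted p = 0.0101), a rise that was lost without undifferentiated control library 1 or undifferentiated control library 2 (log2 0.14 to 0.15, adjusted p = 0.0578 to 0.0641) and on library totals and without the 3 or the 4 libraries with liver transcripts (log2 0.03 to 0.13, adjusted p = 0.133 to 0.655), and turned sign on the TPM scale (log2 −0.09, adjusted p = 0.336). Its interaction (−0.24 ± 0.08, adjusted p = 0.0325) was lost without undifferentiated BIGH3 library 1, undifferentiated control library 1, undifferentiated control library 2, differentiated BIGH3 library 1, differentiated BIGH3 library 2 or differentiated control library 2 (log2 −0.19 to −0.24, adjusted p = 0.0506 to 0.0932), and on library totals, on the TPM scale and without the 3 or the 4 libraries with liver transcripts (log2 −0.16 to −0.21, adjusted p = 0.0872 to 0.294). In BIGH3 treated cells the differentiation change was not called (−0.05 ± 0.06, adjusted p = 0.456), but it was on library totals and on the TPM scale (log2 −0.17 to −0.28, adjusted p = 0.00996 to 0.0267). Ddb2 had 5.93, 4.97 and 5.76 CPM in differentiated BIGH3 cells and 4.92, 3.87 and 4.76 CPM in differentiated controls. In undifferentiated cells Ddb2 had 6.2, 5.38 and 5.93 CPM with BIGH3 and 6.33, 6.54 and 4.75 CPM in controls. Ddb2 libraries overlapped between most groups. Ddb2 fell with differentiation in controls (−0.37 ± 0.15, adjusted p = 0.0444), a call lost without undifferentiated BIGH3 library 3, undifferentiated control library 1, undifferentiated control library 2, differentiated control library 2 or differentiated control library 3 (log2 −0.27 to −0.41, adjusted p = 0.0546 to 0.178), and with DESeq2, with no filter on low counts, with the compared groups alone, with transcript length in the fit and without the 3 or the 4 libraries with liver transcripts (log2 −0.19 to −0.38, adjusted p = 0.0693 to 0.45). It was not called with BIGH3 in differentiated cells (0.30 ± 0.16, adjusted p = 0.13). These values sum all transcripts of Ddb2. Protein-coding transcripts held 67.2% ± 9.5 of its TPM in differentiated BIGH3 cells and 85.4% ± 5.3 in differentiated controls. They held 46.7% ± 5.8 in undifferentiated BIGH3 cells and 31.6% ± 11.6 in undifferentiated controls (SD, n = 3). A change of the coding transcripts alone was not tested. Ddb2 overlaps Acp2 on the opposite strand by 2527 bases, and Acp2 reached 26.5 TPM.

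Polk (chr13:96480690-96542579, minus strand) encodes a DNA polymerase that copies past damaged bases. Polk had 28.7, 28.3 and 29.2 CPM in differentiated BIGH3 cells and 26.1, 29.8 and 29.3 CPM in differentiated controls. In undifferentiated cells Polk had 39.9, 41.8 and 44.1 CPM with BIGH3 and 40.0, 37.7 and 41.4 CPM in controls. The undifferentiated groups were higher and overlapped each other. Polk fell with differentiation in BIGH3 treated cells (−0.54 ± 0.07, adjusted p = 1.07e-06) and in controls (−0.49 ± 0.07, adjusted p = 4.11e-06) and was not called with BIGH3 in differentiated cells (0.02 ± 0.07, adjusted p = 0.857). Rps27l, which encodes a close relative of the ribosomal protein Rps27, had 118 to 163 CPM over the 12 libraries and was called in no comparison. Its reads may be divided with near-identical copies, which was not examined, so its level is uncertain.

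Levels between genes were compared per length, in TPM. Over the 12 libraries Rps27l averaged 588 TPM, Phlda3 317 TPM, Ccng1 221 TPM and Mdm2 216 TPM, the 4 highest of the 32, though the level of Rps27l is uncertain. Psrc1 (91.8 TPM), Tob1 (80.6 TPM), Gadd45a (76.8 TPM), Trp53inp1 (74.3 TPM), Trp53 (64.2 TPM) and Mdm4 (63.5 TPM) followed. At the low end were Gdf15 at 1.05 TPM, Perp at 0.10 TPM and Cyfip2 at 0.050 TPM. Gadd45a had rank 4 of the 32 in differentiated BIGH3 cells, at 166 ± 10.3 TPM, and had 84.9 ± 6.64 TPM in differentiated controls, 28 ± 2.88 TPM in undifferentiated BIGH3 cells and 28.6 ± 1.39 TPM in undifferentiated controls (SD, n = 3). Mdm2 and Ccng1 ranked within the first 5 in all 4 groups. Their neighbours did not always differ: in undifferentiated BIGH3 cells Mdm2 had 268 ± 6.76 TPM and Ccng1 264 ± 2.83 TPM, a gap within their spread.

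Transcript shares, the percentage of a gene's TPM that the authors' model assigned to each transcript, are given without a test. Trp53-203, a coding transcript, led in all 4 groups, with 78.7% ± 7.5 in differentiated BIGH3 cells, 83.2% ± 2.6 in differentiated controls, 76.7% ± 6.2 in undifferentiated BIGH3 cells and 67.2% ± 4.1 in undifferentiated controls (SD, n = 3). Coding transcripts of Mdm2 held 66.5% ± 1.7 in differentiated BIGH3 cells, 63.5% ± 2.1 in differentiated controls, 61.9% ± 3.0 in undifferentiated BIGH3 cells and 58.3% ± 1.5 in undifferentiated controls. Those of Mdm4 held 54.2% ± 4.9 in differentiated BIGH3 cells, 55.3% ± 3.6 in differentiated controls, 49.6% ± 0.76 in undifferentiated BIGH3 cells and 53.2% ± 2.4 in undifferentiated controls. The rest of Mdm4 lay mainly in retained introns and transcripts marked for decay. Coding shares of differentiated BIGH3 cells and differentiated controls did not overlap for Trp53inp1, nor for Trp53, Aen, Ddb2, Xpc, Tnfrsf10b and Psrc1. The nearest libraries were almost level for Tnfrsf10b (98.301% with BIGH3, 98.306% in controls) and Trp53 (97.73% and 97.82%). The share of all genes without such overlap was not counted, so nothing particular to p53 genes is read from this. The coding transcript Trp53inp1-201 held 52.9%, 45.3% and 50.4% in differentiated BIGH3 cells and 63.9%, 60.9% and 74.2% in differentiated controls. In undifferentiated cells it held 72.8%, 61.6% and 73.1% with BIGH3 and 66.6%, 71.3% and 64.1% in controls. The differentiated BIGH3 libraries were below all others, as they were for the coding share of Xpc (93.2% ± 0.24, against 98.4% ± 0.79 in differentiated controls). A processed transcript, Trp53inp1-202, held most of the remainder, with 45.3% ± 2.9 in differentiated BIGH3 cells and 29.6% ± 6.7 in differentiated controls. Both main Sesn1 transcripts are coding, and Sesn1-201 held 89.3% ± 0.79 in differentiated BIGH3 cells, 86.9% ± 1.7 in differentiated controls, 75.3% ± 0.47 in undifferentiated BIGH3 cells and 75.9% ± 3.4 in undifferentiated controls. The leading transcript was not the same in all groups for Ddb2, Ei24 and Pidd1. For Pidd1 the coding transcript Pidd1-201 held 61.6%, 43.2% and 53.1% in differentiated BIGH3 cells and 21.2%, 57.6% and 0% in differentiated controls, while it was at 0 in 2 of 3 libraries of each undifferentiated group. It never held more than 79.6 estimated reads in a library, so the depth allows no firm reading of these shares.

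**Figure D5:**
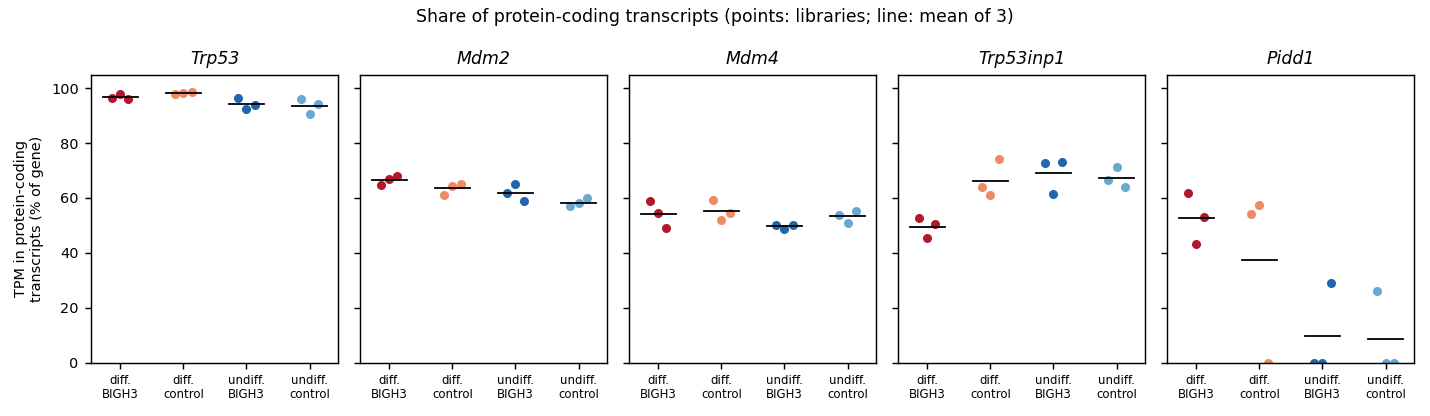
Share of a gene's TPM in protein-coding transcripts (percent, from 0), for Trp53, Mdm2, Mdm4, Trp53inp1 and Pidd1 in each library (points) with the mean of 3 per group (line). Trp53inp1 lies lower in differentiated BIGH3 cells, at 49.5% ± 3.8, than in the other 3 groups, and Pidd1 scatters widely.

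Genes that act on p53 were examined as a list of 22, of which 20 could be tested. With BIGH3 in differentiated cells 7 rose and 5 fell (60.0%, against 45.5% of all genes, median −0.01), beside 22.6% and 22.9%. They were led by Chek1 (1.55 ± 0.14, adjusted p = 1.14e-08), a kinase that signals replication stress, the nuclear body gene Pml (0.50 ± 0.07), the p53 relative Trp63 (−0.31 ± 0.05) and the acetyltransferase gene Crebbp (0.31 ± 0.06). The Crebbp change was not called, with a log2 fold change of −0.02, with transcript length in the fit, nor on the TPM scale (log2 0.04 to 0.06). In undifferentiated cells 0 were called, beside 0.0204% of all genes. With differentiation 2 rose and 12 fell in BIGH3 treated cells (70%, against 56.6% of all genes, median −0.23), beside 28.9% and 27.7%. They were led by Trp63 (−0.58 ± 0.05), the phosphatase gene Ppm1d (−0.80 ± 0.10), the acetyltransferase gene Ep300 (−0.37 ± 0.05) and the ribosomal protein gene Rpl11 (−0.37 ± 0.06). In controls 0 rose and 10 fell (50%, below the 57.7% of all genes, median −0.18), beside 29.1% and 28.6%. The falls were led by Ep300 (−0.57 ± 0.05), Crebbp (−0.51 ± 0.05), Chek1 (−1.27 ± 0.14) and Pml (−0.54 ± 0.07). The Crebbp fall in controls was not called with transcript length in the fit (log2 −0.36, adjusted p = 0.17). The interaction was called for 8 (40%, against 32.2% of all genes), with 6 positive, beside 16.2% of all genes. It was led by Chek1 (1.43 ± 0.19), Pml (0.54 ± 0.10), Crebbp (0.37 ± 0.08) and the kinase gene Hipk2 (0.52 ± 0.13). The Crebbp interaction was not called with transcript length in the fit or on the TPM scale (log2 0.21 to 0.34, adjusted p = 0.464 to 0.655).

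A further 40 p53 targets outside the 32 included 35 that could be tested. With BIGH3 in differentiated cells 11 rose and 10 fell (60.0%, against 45.5% of all genes, median 0.05), beside 22.6% and 22.9%. Fas, a death receptor, rose with the smallest adjusted p (2.76 ± 0.08), followed by Pltp, a lipid transfer protein gene that fell (−1.63 ± 0.06), the autophagy gene Dram1 (1.90 ± 0.07) and the cytokine gene Lif (2.04 ± 0.13). In undifferentiated cells 0 were called, beside 0.0204% of all genes. With differentiation 15 rose and 14 fell in BIGH3 treated cells (82.9%, against 56.6% of all genes, median 0.05), beside 28.9% and 27.7%. Among them were Fas (2.38 ± 0.07), Dram1 (2.12 ± 0.07) and Trp53inp2 (1.34 ± 0.05). In controls 13 rose and 12 fell (71.4%, against 57.7% of all genes, median 0.03), beside 29.1% and 28.6%. Among them were Trp53inp2 (1.26 ± 0.05), Ninj1 (1.36 ± 0.08), which acts in membrane rupture, and Cdkn1a. The interaction was called for 17 (48.6%, against 32.2% of all genes), with 9 positive, beside 16.2% of all genes. It was led by Fas (2.63 ± 0.11), Pltp (−1.58 ± 0.08), Dram1 (1.80 ± 0.10) and Lif (1.93 ± 0.18). Pmaip1, which encodes the death protein Noxa, had too few reads to be tested.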

How the data were processed

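RNA from 12 libraries was sequenced. Tools named in the submitters' processing notes were Salmon, cutadapt, StringTie and FastQC, with the mm10 build. The deposited files give, per the file headers, estimated counts (expected reads per transcript, divided by a model) and TPM by the authors. They were summed per gene through GENCODE M21 (137063 of 147828 transcripts matched, 92.7%; the unmatched held 1.28% to 3.67% of reads) and rounded. After filterByExpr, 14711 genes were normalised by TMM and tested in edgeR 4.0.16 (robust quasi-likelihood, 1 term per group, 12 libraries, 8 residual degrees of freedom, biological coefficient of variation 8.18%). Tests were two-sided with Benjamini-Hochberg adjustment over these genes. Standard errors were derived by dividing each log2 fold change by the root of its F statistic. The code was tested on simulated data. Alternatives used DESeq2 1.42.0, limma 3.58.1 on log2(TPM + 1) and log2(TPM + 0.1), library totals, no filter, compared groups alone, replicate number, transcript length, and libraries left out.

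The p53 genes, other lists and rules were chosen with earlier results of these data known. All 32 genes are named. Values in every library are given for genes called at least once with at least 1 TPM, and of other lists up to 4 genes per comparison with the smallest adjusted p, and Cdkn1a; 1 gene that this rule names is not reported here. No label ties the 3 replicates of a group to separate cultures, so p-values may reflect technical spread alone. Overlapping genes above 1 TPM are named, since the strand of the reads is unknown.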

Additional observations from a re-analysis of the deposited data

Results flagged for a closer look

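For 14 of the 30 tested p53 genes (46.7%, against 32.2% of all genes) the BIGH3 effect differed between differentiated and undifferentiated cells. This was by the interaction term of the edgeR fit, with p-values adjusted over 14711 genes. Each value is the log2 effect in differentiated minus that in undifferentiated cells. Positive differences were found for Ckap2 (2.32, adjusted p = 3.46e-11), Pidd1 (1.84, adjusted p = 8.92e-06), Gtse1 (1.83, adjusted p = 2.49e-10), Psrc1 (1.02, adjusted p = 4.14e-09), Gadd45a (0.90, adjusted p = 2.15e-07), Plk3 (0.80, adjusted p = 0.0226), Mdm4 (0.51, adjusted p = 0.00649), Trp53 (0.50, adjusted p = 6.37e-05) and Tnfrsf10b (0.28, adjusted p = 0.0106). Negative differences were found for Rrm2b (−0.45, adjusted p = 0.00284), Tob1 (−0.30, adjusted p = 0.00434), Phlda3 (−0.30, adjusted p = 0.0274), Aen (−0.26, adjusted p = 0.0070) and Xpc (−0.24, adjusted p = 0.0325). Not all of these calls were firm. Under 21 alternatives the call held in 9 for Phlda3, in 10 for Xpc and in 16 to 20 for Plk3, Aen, Tob1, Rrm2b, Mdm4 and Tnfrsf10b. It held in all 21 for Trp53, Ckap2, Gtse1, Psrc1, Gadd45a and Pidd1.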

How the results depend on the processing

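Of 3270 values of p53 genes under 22 alternatives, 3105 kept their side of the threshold, 111 of them uncalled values whose sign turned, 125 lost the call, 34 gained it and 6 were reversed. On the log2(TPM + 1) and log2(TPM + 0.1) scales the differentiation change was −0.24 and −0.26 for Rrm2b in controls, −0.089 and −0.092 for Xpc in controls, and −0.0311 and −0.0313 for Psrc1 in BIGH3 treated cells. On these scales the median of all genes was −0.25 and −0.31 for differentiation in controls. Crebbp with BIGH3 in differentiated cells was −0.0212 with transcript length in the fit. The cause was not tested.

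The count of p53 genes called was 12 to 17 for BIGH3 in differentiated cells, 0 in undifferentiated cells, 19 to 24 and 22 to 25 for differentiation in BIGH3 treated cells and controls, and 8 to 14 for the interaction. Over all genes the counts in the same order were 5124 to 6805, 0 to 21, 7258 to 8421, 7400 to 8829 and 3277 to 4740. For the interaction, 9 were called on either TPM scale and 8 without the 4 libraries with liver transcripts. Leaving out 1 library gave 13 to 17, 0, 19 to 23, 22 to 24 and 12 to 14 p53 genes. Over all genes it gave 5914 to 6805, 0 to 3, 7493 to 8421, 7826 to 8572 and 4081 to 4740. For BIGH3 in undifferentiated cells, the count over all genes was 8 with DESeq2, 21 with no filter, 0 with the compared groups alone, 1 with transcript length, 1 and 0 on the TPM scales, 1 and 5 without the 3 and 4 libraries, and 0 to 3 with 1 library left out, against 3.

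Of 18 same-numbered pairs of libraries, 3 had deviations correlated above 0.1 (r from −0.25 to 0.57). Pairs with different numbers were not compared, so whether replicate numbers pair the libraries cannot be told. With replicate number as a block, 16, 0, 22, 24 and 14 p53 genes were called in the 5 comparisons. The counts over all genes with this block lay within the ranges over all alternatives given above.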
